A study of Homo sapiens with 12 samples.

Results

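The comparison described here is the addition of a short hairpin RNA (shRNA) against MSI1 in cells that also received an shRNA against MSI2. It sets the 3 double knockdown libraries against the 3 Msi2 knockdown libraries, 6 of the 12 libraries of the series, chosen by their labels alone. RNA was sequenced from MIA PaCa-2, an established line of human pancreatic carcinoma cells. Lentiviruses delivered the shRNAs, cells were infected for 72 hours, and infected cells were sorted on the fluorescent tag of the virus before RNA was extracted. The Msi2 knockdown cells carried a Musashi2 shRNA from a virus marked with Tomato Red. The double knockdown cells carried that shRNA and a Musashi1 shRNA from a virus marked with GFP, and were sorted as double positive. So all 6 libraries share the Msi2 shRNA, and the groups differ by the Msi1 shRNA, by a second virus and by the sorting gate, which cannot be told apart. The other 6 libraries served as a second, separate test of the same shRNA: 3 of Msi1 knockdown cells (Msi1 virus alone) and 3 of control cells, which received a scrambled shRNA. There the Msi1 shRNA stood in place of the scrambled one, with no second virus added. The tag and gate of the control cells, and how many hairpins were used per gene, are not known from the labels.

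Musashi proteins bind RNA through a pair of RNA recognition motifs and act on the translation and stability of the transcripts they bind. They are known as regulators of stem and progenitor cells, first studied in the nervous system, and both family members are found in epithelial cancers, pancreatic adenocarcinoma among them. A messenger RNA measured here can change because a Musashi protein bound it or because something upstream of it changed, and RNA-seq does not tell these apart.

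The targeted transcript was lower in each double knockdown library. MSI1 (gene ID 4440) stood at 7.001, 5.37 and 6.04 CPM in the Msi2 knockdown libraries and 2.01, 1.45 and 1.66 CPM in the double knockdown libraries. The groups did not overlap, and the change was log2 -1.83 ± 0.14, edgeR adjusted p = 2e-08. MSI1 is a low transcript of this line, with a level in the double knockdown of 1.71 ± 0.28 CPM against 6.14 ± 0.82 CPM (SD, n = 3 each). MSI2 (gene ID 124540), whose shRNA was in both groups, stood at 15.1, 17.3 and 12.6 CPM in the Msi2 knockdown libraries and 11.1, 12.2 and 12.02 CPM in the double knockdown libraries. Each double knockdown library lay below each Msi2 knockdown library, and the change was small (log2 -0.35 ± 0.09, edgeR adjusted p = 0.0041). It no longer passed when the library trend described below entered the fit (log2 -0.17, edgeR adjusted p = 0.3). MET and HMGA2 are genes that others have linked to Musashi proteins. MET, the receptor of hepatocyte growth factor, stood at 36.3, 34.5 and 36.1 CPM in the Msi2 knockdown libraries and 23.6, 24.2 and 28.6 CPM in the double knockdown libraries and fell (log2 -0.49 ± 0.07, edgeR adjusted p = 3e-05). HMGA2, a chromatin protein of embryonic and tumour cells, stood under 1 CPM in each of the 6 libraries and its change did not pass the test (log2 -0.14 ± 0.27, edgeR adjusted p = 0.69).

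Levels are in CPM, a gene's count relative to the TMM-scaled total of its library, and changes are log2 values of the double knockdown over the Msi2 knockdown ± standard error from edgeR. A gene is called changed at an adjusted p under 0.05. Libraries held 39853171 to 56122207 estimated counts in the double knockdown. The range was 39692117 to 53014534 for the Msi2 knockdown and 10948191 to 38922394 for the control and Msi1 knockdown together. The labels do not say that replicates were separate cultures, and the spread that p-values measure is that between these libraries only, which may be technical. The line's own markers matched its name: KRT8 averaged 1171 and 1546 CPM in Msi2 and double knockdown libraries, VIM 5300.2 and 5972 CPM, and CDH1 0.29 and 0.36 CPM. CDKN2A, which lies in a deletion of this line, had at most 1 count in any library. MTAP, a neighbour of CDKN2A that is also reported as deleted, averaged 0.99 and 0.67 CPM, with up to 60 counts in a library. The double knockdown libraries stood apart from the other 9 in a way that also varied within groups. The first component of the libraries' deviations from their group means held 54.1% of the within-group variance, and a library's position along it is its library trend score. Double knockdown libraries scored -1.54 to -1.06 and Msi2 knockdown libraries -0.34 to 1.07. Control libraries scored -0.39 to 0.68 and Msi1 knockdown libraries 0.09 to 1.38. The slope of their log2 levels on log2 transcript length ran from -0.15 to -0.08, against -0.01 to 0.08 in the Msi2 knockdown. For both measures the exact permutation p of 3 libraries against 3 was 0.1, two-sided, the smallest this design allows (0.3 adjusted over 6 measures). The trend and the double knockdown cannot be fully told apart, so counts are given below with and without the trend score as a covariate.

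**Figure D1:**
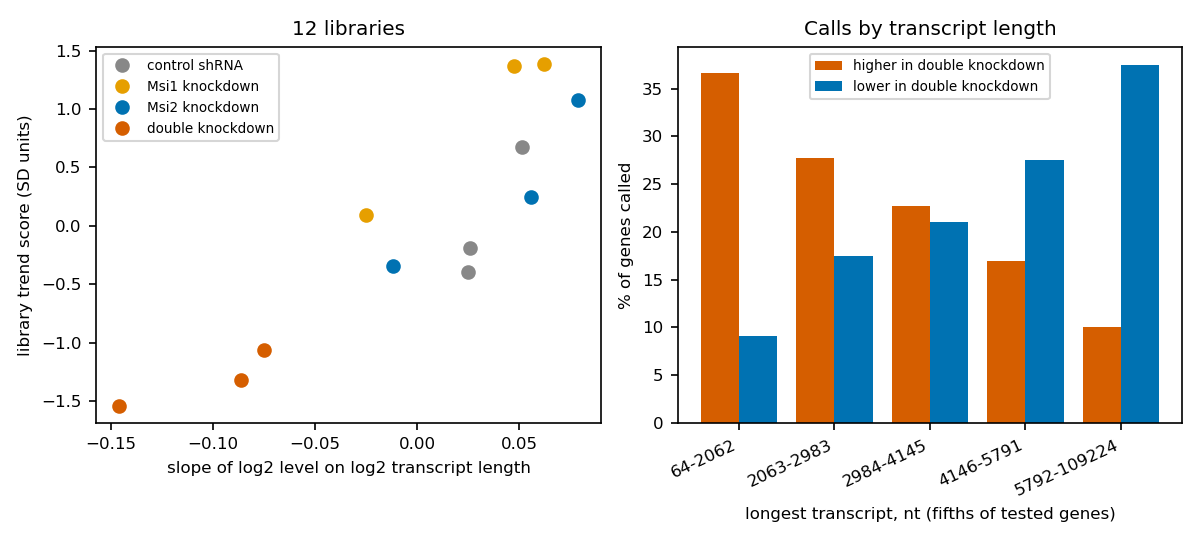
Left: the library trend score of each of the 12 libraries (vertical axis) against the slope of its log2 levels on log2 transcript length (horizontal axis), coloured by group. The 3 double knockdown libraries lie lowest on both axes. Right: percent of tested genes called higher or lower in the double knockdown, in 5 equal bins of transcript length in nucleotides (nt); the share called higher goes from 36.7% in the shortest bin to 10.0% in the longest.

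Of 15021 genes tested, 6792 were called (45.2%), 3413 higher (22.7%) and 3379 lower (22.5%) in the double knockdown. Most changes were small, with a median size of 0.36 among the called genes, and 98 rises and 238 falls reached 2-fold. For 8339 genes (55.5%) the 3 double knockdown libraries and the 3 Msi2 knockdown libraries did not overlap. With the library trend as a covariate 2697 genes were called (18%), 1238 higher and 1459 lower, and 2062 of the 2697 were among the 6792 with the same direction. The shares of all tested genes in both fits are the background for the counts of gene lists below. Short transcripts made up more of the rises and long ones more of the falls. In the shortest of 5 equal bins of genes (64 to 2062 nt) 36.7% were called higher and 9.12% lower, and in the longest (5792 to 109224 nt) 10.0% and 37.5%. The median change ran from 0.16 to -0.16 from the shortest to the longest bin, and from 0.06 to -0.05 with the covariate. A fit with a correction for transcript length called 6565 genes. It kept 5545 of the 6792 calls in the same direction (81.6%). Beyond this correction, the part of transcript length in single genes' changes was not tested.

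Among the largest rises were regulators of growth signalling and the cell cycle. CDKN1A encodes p21, an inhibitor of cyclin-dependent kinases, and stood at 8.81, 8.24 and 9.47 CPM in the Msi2 knockdown libraries and 24.9, 23.1 and 22.4 CPM in the double knockdown libraries. Its rise was about 2.66-fold (log2 1.41 ± 0.09, edgeR adjusted p = 1.4e-09), with no overlap between the groups. Genes are ranked here among those that reached 10 CPM on average in whichever group was higher, with no overlap. EGR3, an early growth response transcription factor induced by growth factor signals, stood at 3.79, 3.88 and 3.89 CPM in the Msi2 knockdown libraries and 10.9, 11.7 and 10.96 CPM in the double knockdown libraries, the largest rise by that rule (log2 1.53 ± 0.08, edgeR adjusted p = 2.9e-10). IER3, an early response gene linked to cell survival, went from a mean of 12.8 to 30.5 CPM (log2 1.26 ± 0.09, edgeR adjusted p = 1.4e-08). DUSP2, a phosphatase that removes phosphate from MAP kinases, stood at 5.47, 5.30 and 5.98 CPM in the Msi2 knockdown libraries and 12.9, 11.7 and 11.5 CPM in the double knockdown libraries. The 3 double knockdown libraries were all above the highest Msi2 knockdown library (log2 1.11 ± 0.10, edgeR adjusted p = 1.6e-07). VGF, a secreted peptide precursor of neuroendocrine cells, stood at 24.4, 24.4 and 27.3 CPM in the Msi2 knockdown libraries and 55.4, 53.7 and 50.1 CPM in the double knockdown libraries. It too rose without overlap (log2 1.06 ± 0.08, edgeR adjusted p = 4.1e-08).

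The other large rises belonged to enzymes, a long non-coding RNA and less studied genes. DHRS2, a mitochondrial short-chain dehydrogenase, stood at 5.45, 4.33 and 4.69 CPM in the Msi2 knockdown libraries and 12.4, 11.6 and 11.998 CPM in the double knockdown libraries (log2 1.33 ± 0.11, edgeR adjusted p = 4.1e-08). GLDC, the glycine decarboxylase of the mitochondrial glycine cleavage system, stood at 10.7, 9.25 and 11.2 CPM in the Msi2 knockdown libraries and 24.4, 22.5 and 22.3 CPM in the double knockdown libraries (log2 1.15 ± 0.10, edgeR adjusted p = 1.6e-07). DANCR, a long non-coding RNA and host of small nucleolar RNAs, stood at 18.2, 19.3 and 20.3 CPM in the Msi2 knockdown libraries and 44.1, 42.3 and 40.4 CPM in the double knockdown libraries (log2 1.13 ± 0.07, edgeR adjusted p = 1.2e-09). These groups did not overlap either. MLLT11 went from a mean of 5.49 to 13.6 CPM (log2 1.31 ± 0.08, edgeR adjusted p = 2.6e-09) and CCDC85B 16.2 to 34.3 CPM (log2 1.08 ± 0.12, edgeR adjusted p = 7e-06). Transcripts of MIR663AHG, a microRNA host gene, went from a mean of 7.85 to 19.4 CPM (log2 1.31), and the uncharacterised LOC102723471 went from a mean of 4.88 to 10.4 CPM (log2 1.09). All 12 of these leading rises kept a call with the trend covariate, with log2 changes there from 0.66 for CCDC85B to 1.43 for EGR3.

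The largest falls included the EGF receptor and an integrin of the cell surface. EGFR, the epidermal growth factor receptor, stood at 388, 438 and 370.5 CPM in the Msi2 knockdown libraries and 155, 157 and 177 CPM in the double knockdown libraries. It fell to 0.409 of its level without overlap (log2 -1.29 ± 0.10, edgeR adjusted p = 3.8e-08). ITGB4, the beta 4 integrin of hemidesmosomes, which anchor epithelial cells to laminin, stood at 422, 451 and 403 CPM in the Msi2 knockdown libraries and 186, 177 and 195 CPM in the double knockdown libraries. Here too the highest double knockdown library lay below the lowest Msi2 knockdown library (log2 -1.19 ± 0.09, edgeR adjusted p = 2.1e-08). TXNDC5, a protein disulfide isomerase of the endoplasmic reticulum (ER), stood at 273, 292 and 292 CPM in the Msi2 knockdown libraries and 109, 96.3 and 94.6 CPM in the double knockdown libraries (log2 -1.51 ± 0.09, edgeR adjusted p = 2.5e-09). ABCA1, which exports cholesterol from cells, stood at 16.9, 19.1 and 16.8 CPM in the Msi2 knockdown libraries and 5.08, 6.06 and 5.73 CPM in the double knockdown libraries, the largest fall by the same rule (log2 -1.65 ± 0.12, edgeR adjusted p = 8.3e-09). With the covariate in the fit these falls were log2 -0.90 for EGFR, -0.86 for ITGB4, -1.30 for TXNDC5 and -1.26 for ABCA1, and each kept its call.

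Of the rest of the 12 largest falls, 5 lay in well separated groups. ATP9A, a lipid flippase of endosomes, stood at 23.6, 24.2 and 22.4 CPM in the Msi2 knockdown libraries and 7.95, 8.46 and 9.95 CPM in the double knockdown libraries (log2 -1.42 ± 0.09, edgeR adjusted p = 1.4e-09). FSTL1, a secreted glycoprotein related to follistatin, stood at 23.8, 26.8 and 24.8 CPM in the Msi2 knockdown libraries and 11.2, 11.1 and 11.4 CPM in the double knockdown libraries (log2 -1.16 ± 0.07, edgeR adjusted p = 1.3e-09). ELMOD2, an activator of small GTPase turnover of the ARF family, went from a mean of 21.1 to 9.23 CPM (log2 -1.202 ± 0.10, edgeR adjusted p = 4.1e-08). The choline transporter-like SLC44A5 went from a mean of 11.6 to 5.12 CPM and the zinc finger gene ZMAT1 12.1 to 5.48 CPM, with log2 changes of -1.19 and -1.15. The covariate fit gave log2 -1.22 for ATP9A, -1.02 for FSTL1, -0.995 for ELMOD2, -0.60 for SLC44A5 and -0.65 for ZMAT1. All 5 stayed called there. The other 3 falls were uncertain. CCDC144A, its near-identical copy CCDC144B and the profilin pseudogene PFN1P2 share sequence with other loci, so the estimated split of reads between copies could move them. They varied within the Msi2 knockdown, CCDC144A at 37.5, 51.3 and 23.998 CPM in its 3 libraries, and none was called with the covariate (log2 -0.25, 0.01 and -0.14 for CCDC144A, CCDC144B and PFN1P2, edgeR adjusted p = 0.37, 0.99 and 0.6). For each gene named below as changed, the libraries of both groups did not overlap.

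**Figure D2:**
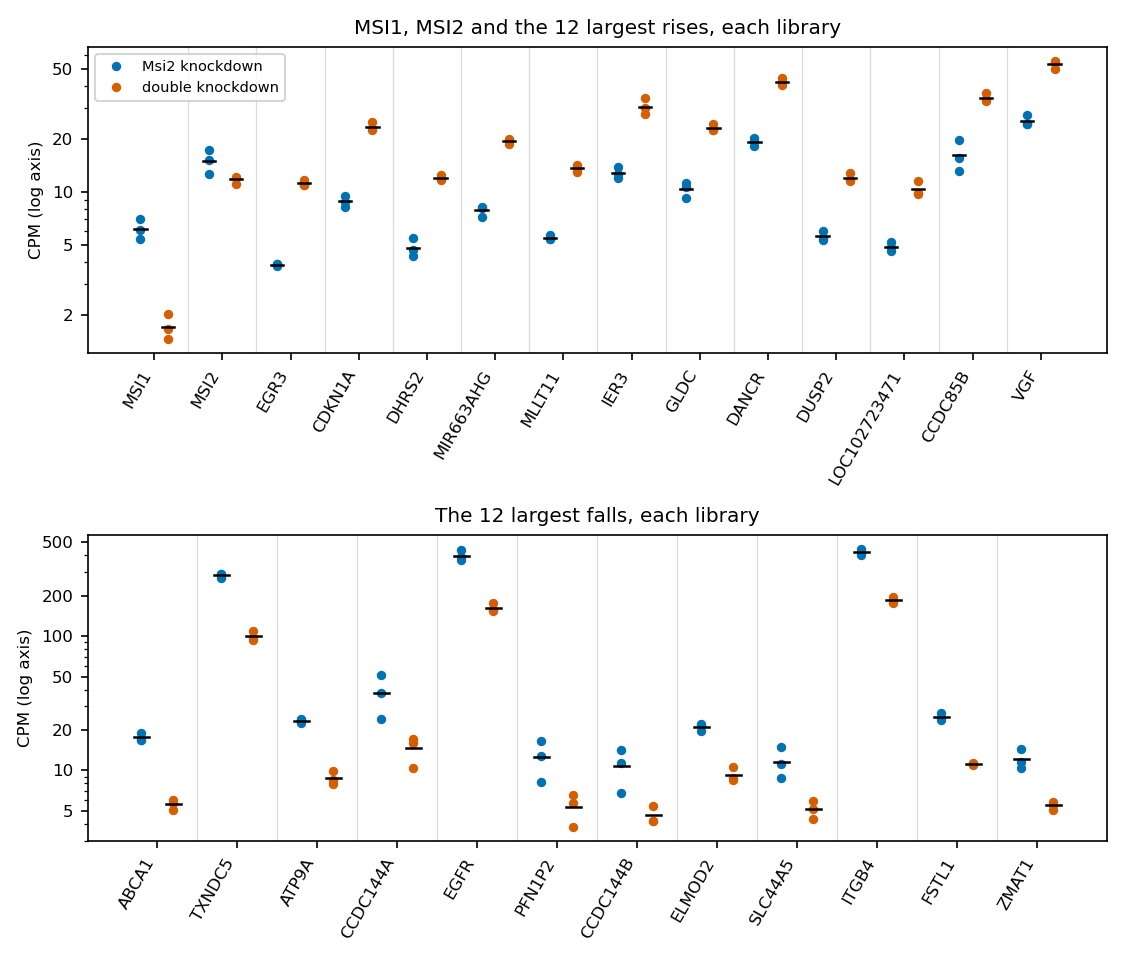
Level in CPM (log axis) of MSI1, MSI2 and the 12 largest rises (top) and of the 12 largest falls (bottom) in each of the 3 Msi2 knockdown and 3 double knockdown libraries; points are libraries and black bars are means. The groups do not overlap for any gene shown, and CCDC144A, CCDC144B and PFN1P2 spread most within the Msi2 knockdown.

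Genes of S phase and of mitosis were mostly called higher in the double knockdown, next to the higher CDKN1A. Of 45 genes of S phase and DNA replication tested, 40 were called higher and none lower, with a median change of 0.40, where 22.7% of all tested genes were called higher. Of 41 genes of G2 and mitosis 31 were higher and none lower (median 0.32), and of 16 replication-dependent histone genes 7 were higher and none lower (median 0.53). With the trend covariate the counts were 22 higher and 0 lower of S phase genes (median 0.23), 16 and 2 of G2 and mitosis genes (median 0.15), and 1 and 0 of histone genes. The histone count was 4 without double knockdown replicate 1 or 3 or Msi2 knockdown replicate 1, and 3 without Msi2 knockdown replicate 2. In bulk RNA, more cells in a phase and more RNA per cell in that phase cannot be told apart. E2F1, the transcription factor that drives entry into S phase, stood at 29.1, 29.4 and 28.6 CPM in the Msi2 knockdown libraries and 46.7, 43.6 and 41.5 CPM in the double knockdown libraries (log2 0.60 ± 0.06, edgeR adjusted p = 5.3e-07). GINS2, a subunit of the replicative helicase complex, stood at 26.8, 24.8 and 28.8 CPM in the Msi2 knockdown libraries and 45.5, 41.1 and 39.5 CPM in the double knockdown libraries (log2 0.65 ± 0.07, edgeR adjusted p = 2e-06). CDC6, which loads that helicase onto origins, stood at 46.8, 44.1 and 49.5 CPM in the Msi2 knockdown libraries and 76.5, 71.7 and 69.6 CPM in the double knockdown libraries (log2 0.63 ± 0.07, edgeR adjusted p = 2.1e-06).

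For mitosis, UBE2C, a ubiquitin-conjugating enzyme of the anaphase-promoting complex, stood at 133, 118 and 145 CPM in the Msi2 knockdown libraries and 238, 229.7 and 211 CPM in the double knockdown libraries (log2 0.78 ± 0.08, edgeR adjusted p = 1.6e-06). PTTG1 encodes securin, which keeps sister chromatids from separating before anaphase, and stood at 109, 99.5 and 124 CPM in the Msi2 knockdown libraries and 178, 167 and 157 CPM in the double knockdown libraries (log2 0.60 ± 0.08, edgeR adjusted p = 1.5e-05). SPC24, a kinetochore protein, went from a mean of 14.8 to 22.1 CPM (log2 0.58 ± 0.07, edgeR adjusted p = 8.8e-06). Each of these genes was above all Msi2 knockdown libraries in all 3 double knockdown libraries. The G1 genes were mixed, with 11 of 18 higher and 4 lower, and 5 and 4 with the covariate. Without double knockdown replicate 1 or Msi2 knockdown replicate 2 the count higher was 6 and 7. CDK6, the G1 kinase that pairs with D-type cyclins, stood at 89.7, 79.2 and 82.2 CPM in the Msi2 knockdown libraries and 39.98, 48.2 and 48.3 CPM in the double knockdown libraries and fell (log2 -0.88 ± 0.08, edgeR adjusted p = 2.1e-07). It moved against E2F1 and CDKN1A, which are on the same list. Among histones, HIST1H3H rose from 0.797 to 1.53 CPM (log2 0.94 ± 0.18, edgeR adjusted p = 0.00037) and HIST1H2BK from 2.25 to 3.89 CPM (log2 0.79 ± 0.14, edgeR adjusted p = 0.00019). HIST1H1C rose as well (log2 0.54). Neither HIST1H2BK nor HIST1H1C was called with the covariate (log2 0.44 and 0.09) or after thinning, and HIST1H1C lost its call without double knockdown replicate 1 or Msi2 knockdown replicate 1 or 2. Histone genes are near-identical copies of each other, and most of their transcripts lack a poly(A) tail, so these low values are uncertain.

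The promoters of 4 of the gene lists are known to share a motif, and 1 member of each is shown because more members of each list were called higher than lower. Windows are the 120 bases before the RefSeq start site (GRCh38.p14), 5′ to 3′ on the gene's strand, with motif matches on either strand in capitals. E2F1 lies at chr20:33686386-33686505, minus strand, with E2F sites. PTTG1 lies at chr5:160421735-160421854, plus strand, with CCAAT boxes, 2 of which overlap. TNFAIP3, of the NF-kB list below, lies at chr6:137867139-137867258, plus strand, with kB sites. HSPA8, of the heat shock list below, lies at chr11:123062137-123062256, minus strand, with 2 overlapping heat shock elements in the window.
E2F1: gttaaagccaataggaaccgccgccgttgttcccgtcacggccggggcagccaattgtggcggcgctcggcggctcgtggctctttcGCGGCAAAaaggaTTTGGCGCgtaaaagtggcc
PTTG1: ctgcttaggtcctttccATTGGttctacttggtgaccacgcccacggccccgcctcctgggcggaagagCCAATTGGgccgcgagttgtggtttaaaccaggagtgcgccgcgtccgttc
TNFAIP3: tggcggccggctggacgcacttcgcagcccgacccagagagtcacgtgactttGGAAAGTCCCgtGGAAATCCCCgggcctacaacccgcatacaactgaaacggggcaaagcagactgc
HSPA8: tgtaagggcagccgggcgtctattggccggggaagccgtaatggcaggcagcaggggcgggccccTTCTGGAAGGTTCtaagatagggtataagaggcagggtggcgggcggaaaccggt
An E2F site (TTTCGCGC, TTTGGCGC, TTTCCCGC or TTTGCCGC) was in the 250 bases before the start of 14 of 37 S phase genes with a RefSeq promoter (37.8%), against 2.8% of 27305 promoters. A CCAAT box was in 26 of 34 G2 and mitosis promoters (76.5%), against 33.0%. A kB site was in 10 of 22 NF-kB promoters (45.5%), against 5.1%, and a heat shock element (GAANNTTC or TTCNNGAA) in 8 of 22 heat shock promoters (36.4%), against 11.7%. Of the genes with a match, 12 of 14, 21 of 26, 7 of 10 and 7 of 8 were called higher, where the whole lists had 40 of 45, 31 of 41, 14 of 26 and 17 of 23 called higher, and 22, 16, 9 and 5 with the covariate. Of the 10 genes with a kB site 1 was called lower. The 27305 promoters were not limited to tested genes. The lists were chosen for known function, so their share of motifs does not bear on the double knockdown. These matches describe letters in the window, not bound sites.

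Cytosolic ribosomal proteins were higher almost throughout, and few of their calls were left with the library trend in the fit. Of 77 cytosolic ribosomal protein genes 72 were called higher and none lower (median 0.34). Their transcripts are among the shortest of the cell. With the transcript length correction 47 were higher and none lower, and with the trend covariate 3 were higher and 3 lower (median 0.03). Without Msi2 knockdown replicate 2 the count higher was 46, and without each other library of both groups it was higher than that, up to 75. RPS15, of the small subunit, stood at 285, 256 and 319.8 CPM in the Msi2 knockdown libraries and 446, 417 and 392 CPM in the double knockdown libraries (log2 0.54 ± 0.08, edgeR adjusted p = 4e-05), and RPL27A, of the large subunit, went from a mean of 646 to 944 CPM (log2 0.55 ± 0.09, edgeR adjusted p = 0.00014). Among translation factors 26 of 40 were higher and 3 lower, which became 4 and 5 with the covariate, and 16 were higher without Msi2 knockdown replicate 2. EIF4A2, an RNA helicase of translation initiation, went the other way from most of its list, at 862, 850.5 and 882 CPM in the Msi2 knockdown libraries and 555, 581 and 592 CPM in the double knockdown libraries (log2 -0.59 ± 0.06, edgeR adjusted p = 1.7e-06), and its change was the same with the covariate (log2 -0.59). EIF3J, a subunit of initiation factor 3, rose (log2 0.50). Among ribosome assembly and MYC-linked genes 21 of 32 were higher and none lower (5 and 3 with the covariate), with LYAR, a nucleolar protein, at log2 0.54.

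Proteasome subunits showed the same direction: 30 of 31 were called higher and none lower (median 0.35), against 26 and 0 with the length correction and 6 and 1 with the covariate. PSMB2, a beta subunit of the core particle, stood at 158, 144 and 165 CPM in the Msi2 knockdown libraries and 222, 221 and 208 CPM in the double knockdown libraries (log2 0.48 ± 0.07, edgeR adjusted p = 2.6e-05). PSMD14, the deubiquitinase of the regulatory particle, went from a mean of 111 to 155 CPM (log2 0.48 ± 0.08, edgeR adjusted p = 7.1e-05). Of 55 nuclear genes of oxidative phosphorylation 40 were higher and none lower (median 0.31), 26 and 2 with the length correction and 6 and 0 with the covariate. ATP5L and ATP5D, both subunits of ATP synthase, rose by log2 0.60 and 0.58. The 13 genes encoded by the mitochondrion itself did not follow: none was called in either direction by edgeR's quasi-likelihood test (median -0.02), and with the length correction 5 were lower. Of them, COX1, a subunit of cytochrome oxidase, had the smallest p (log2 -0.23 ± 0.12, edgeR adjusted p = 0.11). Splicing factors of the HNRNP and SRSF families were called higher in 18 of 33 and lower in 4, and in 6 and 1 with the covariate, and 11 were higher without Msi2 knockdown replicate 2. HNRNPM went from a mean of 198 to 277 CPM (log2 0.49 ± 0.07, edgeR adjusted p = 2.6e-05).

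Chromatin regulators, most of them long transcripts, lay on the other side. Of 46 tested, 1 was called higher and 21 lower (median -0.12), where 22.5% of all genes were called lower. With the length correction 7 were higher and 11 lower, and with the covariate 2 and 9. TET2, which oxidises methylcytosine, stood at 18.5, 18.1 and 15.5 CPM in the Msi2 knockdown libraries and 8.16, 10.2 and 10.7 CPM in the double knockdown libraries (log2 -0.85 ± 0.10, edgeR adjusted p = 3.6e-06). ASH1L, a histone methyltransferase, stood at 115, 116 and 98.4 CPM in the Msi2 knockdown libraries and 62.2, 69.6 and 71.99 CPM in the double knockdown libraries (log2 -0.69 ± 0.07, edgeR adjusted p = 1.4e-06). The groups did not overlap for either gene, and both kept their call with the covariate.

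**Figure D3:**
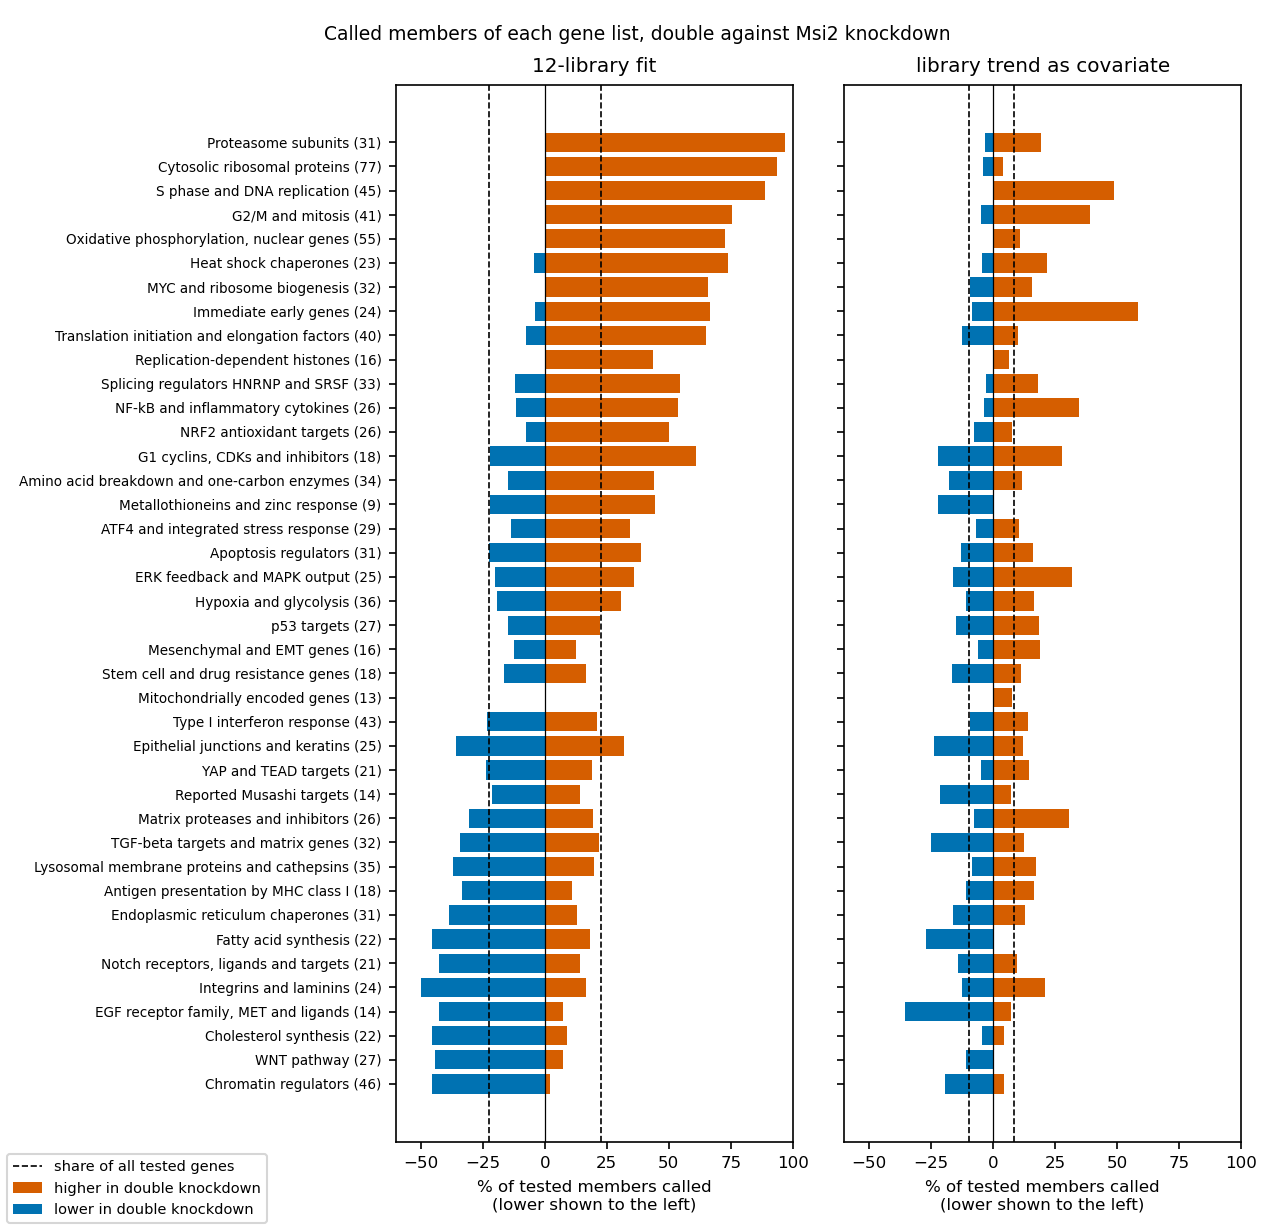
Percent of the tested members of each of 40 gene lists (number tested in brackets) called higher (right of 0) or lower (left of 0) in double against Msi2 knockdown cells. Left panel, fit of the 12 libraries; right panel, the same with the library trend as a covariate. Dashed lines are the shares of all tested genes: the bars of ribosomal proteins shrink to a few percent in the right panel, while those of immediate early and S phase genes stay beyond the line.

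Immediate early genes, which growth factor and stress signals switch on within minutes, were called higher more often than lower. Of 24 tested, 16 were called higher and 1 lower (median 0.47), and with the covariate 14 and 2 (median 0.29), with 15 to 16 higher when any 1 library of both groups was left out. JUN, a subunit of the AP-1 transcription factor, stood at 81.4, 72.8 and 83.6 CPM in the Msi2 knockdown libraries and 143, 138 and 135 CPM in the double knockdown libraries (log2 0.81 ± 0.07, edgeR adjusted p = 4.8e-08). FOS, its partner, stood at 2.81, 2.82 and 3.31 CPM in the Msi2 knockdown libraries and 5.98, 5.55 and 7.07 CPM in the double knockdown libraries (log2 1.05 ± 0.14, edgeR adjusted p = 1.1e-05). All 3 double knockdown libraries were above all Msi2 knockdown libraries for both. Feedback inhibitors and outputs of ERK signalling were mixed, with 9 of 25 higher and 5 lower, where 22.7% and 22.5% of all tested genes were. In the covariate fit 8 were higher and 4 lower, where 1238 and 1459 of all 15021 genes were. DUSP5, a nuclear ERK phosphatase, stood at 9.86, 8.02 and 10.1 CPM in the Msi2 knockdown libraries and 19.6, 19.3 and 16.9 CPM in the double knockdown libraries (log2 1.00 ± 0.10, edgeR adjusted p = 4e-07). DUSP2 and IER3, already described, are on the same list.

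NF-kB and inflammatory cytokine genes were called higher in 14 of 26 and lower in 3 (median 0.27), and in 9 and 1 with the covariate. CXCL2, a neutrophil chemokine, stood at 4.52, 4.85 and 5.12 CPM in the Msi2 knockdown libraries and 8.14, 9.08 and 6.997 CPM in the double knockdown libraries (log2 0.74 ± 0.11, edgeR adjusted p = 4.1e-05). TNFAIP3 encodes A20, an inhibitor of NF-kB that NF-kB induces, and stood at 17.4, 16.8 and 16.7 CPM in the Msi2 knockdown libraries and 24.5, 23.02 and 21.5 CPM in the double knockdown libraries (log2 0.44 ± 0.07, edgeR adjusted p = 8.7e-05). NFKBIB, an inhibitor that holds NF-kB in the cytoplasm, went from a mean of 9.28 to 14.001 CPM (log2 0.60 ± 0.08, edgeR adjusted p = 2e-05). Interferon response genes split, 9 of 43 higher and 10 lower, close to the 22.7% and 22.5% of all genes, and 6 and 4 with the covariate. IFITM1, a membrane protein that blocks virus entry, fell (mean 234 to 155 CPM, log2 -0.59 ± 0.07, edgeR adjusted p = 2.9e-06). RSAD2, the antiviral protein viperin, rose (mean 6.02 to 9.84 CPM, log2 0.70 ± 0.10, edgeR adjusted p = 2.1e-05), and so did OASL (log2 0.45). In antigen presentation by MHC class I, 6 of 18 genes were lower and 2 higher, and 2 and 3 with the covariate. Those that fell included the peptide-trimming proteases ERAP1 (log2 -0.60) and ERAP2 (log2 -0.53) and the non-classical HLA-E (log2 -0.40). ERAP2 was not called with the covariate (log2 -0.26).

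Heat shock genes were called higher more often than lower and ER chaperones lower more often than higher. Of 23 heat shock genes 17 were called higher and 1 lower (median 0.29), 5 and 1 with the covariate (median 0.12). HSPA8, the constitutive HSP70, stood at 1979, 1807 and 2066 CPM in the Msi2 knockdown libraries and 2775, 2673 and 2706 CPM in the double knockdown libraries (log2 0.48 ± 0.08, edgeR adjusted p = 9e-05). Its co-chaperone DNAJA1 stood at 162, 143 and 178 CPM in the Msi2 knockdown libraries and 233, 225 and 231 CPM in the double knockdown libraries (log2 0.51 ± 0.08, edgeR adjusted p = 7.2e-05). HSPE1, the mitochondrial co-chaperonin, rose (log2 0.50) but was not called with the covariate. Of 31 ER chaperone and quality control genes 4 were higher and 12 lower (median -0.12), 4 and 5 with the covariate, where the median turned to 0.08. ERN1 encodes IRE1, the ER stress sensor that splices XBP1 mRNA, and stood at 25.5, 28.1 and 23.4 CPM in the Msi2 knockdown libraries and 12.1, 13.5 and 14.4 CPM in the double knockdown libraries (log2 -0.95 ± 0.10, edgeR adjusted p = 1.4e-06). SEC61B, of the protein-conducting channel, rose against most of its list (log2 0.55). Of 26 antioxidant targets of NRF2 13 were higher and 2 lower (2 and 2 with the covariate). TXNRD1, thioredoxin reductase, stood at 578, 516 and 569.6 CPM in the Msi2 knockdown libraries and 888, 917 and 830.1 CPM in the double knockdown libraries (log2 0.66 ± 0.08, edgeR adjusted p = 4e-06), and SRXN1, sulfiredoxin, went from a mean of 94.8 to 142 CPM (log2 0.58 ± 0.10, edgeR adjusted p = 0.00018) and was not called with the covariate (log2 0.34).

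EGFR and ITGB4 belong to lists in which more genes were called lower than higher. In the list of the EGF receptor family, MET and their ligands 6 of 14 were called lower and 1 higher (median -0.23), 5 and 1 with the covariate. ERBB3, a family member with little kinase activity of its own, stood at 16.2, 17.9 and 15.7 CPM in the Msi2 knockdown libraries and 9.63, 8.62 and 10.3 CPM in the double knockdown libraries (log2 -0.80 ± 0.09, edgeR adjusted p = 2.1e-06). Of 24 integrins and laminins 12 were lower and 4 higher (median -0.36), but with the covariate 3 were lower and 5 higher (median -0.02). ITGA6, the partner of ITGB4, stood at 46.2, 53.3 and 49.6 CPM in the Msi2 knockdown libraries and 31.01, 32.9 and 33.5 CPM in the double knockdown libraries (log2 -0.62 ± 0.08, edgeR adjusted p = 5.8e-06). ITGA2, a subunit of a collagen receptor, was low but rose (mean 1.10 to 2.60 CPM, log2 1.23 ± 0.15, edgeR adjusted p = 4.8e-06). So both subunits of the hemidesmosome integrin fell while another integrin subunit rose.

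Notch and WNT components were called lower more often than higher, with few calls left in the covariate fit. Of 21 Notch genes 9 were called lower and 3 higher, where 22.5% and 22.7% of all tested genes were. With the covariate 3 were lower and 2 higher, where 1459 and 1238 of all 15021 genes were. NOTCH2 stood at 290.1, 322 and 267 CPM in the Msi2 knockdown libraries and 146, 158 and 173 CPM in the double knockdown libraries (log2 -0.89 ± 0.11, edgeR adjusted p = 2.1e-05). NRARP, a target and inhibitor of Notch signalling, rose (log2 0.74). Of 27 WNT genes 12 were lower and 2 higher, 3 and 0 with the covariate. The receptor FZD4 fell by 0.52 on the log2 scale, its co-receptor LRP5 by 0.42, not called with the covariate, and the secreted inhibitor SFRP1 by 0.37. In the list of TGF-beta targets and matrix genes 11 of 32 were lower and 7 higher (8 and 4 with the covariate). Without Msi2 knockdown replicate 2, 7 were lower, and without double knockdown replicate 1, 4 were higher. TGFBR1, a TGF-beta receptor that others have named as a Musashi target, stood at 30.6, 33.2 and 34.2 CPM in the Msi2 knockdown libraries and 20.2, 21.1 and 20.6 CPM in the double knockdown libraries (log2 -0.66 ± 0.07, edgeR adjusted p = 1.3e-06). COL5A1 and COL6A1, collagen chains, fell by 1.03 and 0.61 on the log2 scale.

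Matrix proteases and their inhibitors were called lower in 8 of 26 and higher in 5, but higher in 8 and lower in 2 with the covariate. Without the covariate 22.5% of all tested genes were called lower and 22.7% higher. PLAU, the urokinase plasminogen activator, stood at 526, 577 and 547 CPM in the Msi2 knockdown libraries and 400.2, 363 and 385 CPM in the double knockdown libraries and fell (log2 -0.52 ± 0.08, edgeR adjusted p = 3.9e-05). MMP1, interstitial collagenase, stood at 21.9, 26.9 and 25.9 CPM in the Msi2 knockdown libraries and 41.97, 40.5 and 40.3 CPM in the double knockdown libraries and rose (log2 0.71 ± 0.08, edgeR adjusted p = 2.1e-06). SERPINE2, an inhibitor of serine proteases, rose from 1.66 to 3.36 CPM (log2 1.01 ± 0.17, edgeR adjusted p = 0.00011), but was not called after thinning all libraries to the smallest (log2 0.60, edgeR adjusted p = 0.0964). Among mesenchymal genes 2 of 16 rose and 2 fell, smaller shares than the 22.7% and 22.5% of all tested genes. In the covariate fit 3 rose and 1 fell, where 1238 and 1459 of all 15021 genes did. LOXL2, an oxidase that cross-links collagen, stood at 403, 448 and 404 CPM in the Msi2 knockdown libraries and 205, 183 and 208 CPM in the double knockdown libraries (log2 -1.07 ± 0.08, edgeR adjusted p = 3.3e-08). SNAI1, a transcription factor of epithelial-mesenchymal transition, rose (log2 0.73), without a call under the covariate (log2 0.44). CDH5, a cadherin best known from endothelium, rose from 12.4 to 20.7 CPM (log2 0.74 ± 0.08, edgeR adjusted p = 2.6e-06). Epithelial junction genes and keratins were split, 8 of 25 higher and 9 lower (3 and 6 with the covariate). KRT19, a keratin of ductal epithelium, stood at 45.3, 43.2 and 50.5 CPM in the Msi2 knockdown libraries and 80.9, 79.1 and 71.6 CPM in the double knockdown libraries (log2 0.74 ± 0.08, edgeR adjusted p = 8.5e-07), while DSG2 and DSP, proteins of desmosomes, fell by 0.71 and 0.40 on the log2 scale.

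Lipid enzymes were called lower more often than higher, where 22.5% and 22.7% of all tested genes were. Of 22 genes of fatty acid synthesis 10 were called lower and 4 higher (median -0.19), 6 and 0 with the covariate. SCD, the desaturase that makes oleic acid, stood at 2987, 3322 and 3141 CPM in the Msi2 knockdown libraries and 1755, 1752 and 1944 CPM in the double knockdown libraries (log2 -0.79 ± 0.09, edgeR adjusted p = 1.9e-06). ACLY, which makes cytosolic acetyl-CoA from citrate, stood at 505, 460.3 and 477 CPM in the Msi2 knockdown libraries and 317, 302 and 314 CPM in the double knockdown libraries (log2 -0.63 ± 0.06, edgeR adjusted p = 6e-07). ACACB, an acetyl-CoA carboxylase, fell by 0.57 on the log2 scale. Of 22 genes of cholesterol synthesis and uptake 10 were lower and 2 higher, 1 and 1 with the covariate. SQLE, squalene epoxidase, fell by 0.38 on the log2 scale and SC5D by 0.46. SC5D was not called with the covariate. NPC1, which moves cholesterol out of lysosomes, stood at 113, 126 and 108 CPM in the Msi2 knockdown libraries and 60.8, 63.2 and 65.8 CPM in the double knockdown libraries (log2 -0.87 ± 0.08, edgeR adjusted p = 2.9e-07). It led a lysosomal list in which 13 of 35 genes were lower and 7 higher, against 3 and 6 with the covariate, with CTSC, a cathepsin, higher (log2 0.57). PRODH, the first enzyme of proline breakdown, stood at 6.75, 8.13 and 6.61 CPM in the Msi2 knockdown libraries and 1.97, 1.98 and 2.28 CPM in the double knockdown libraries (log2 -1.79 ± 0.11, edgeR adjusted p = 2.5e-09), the strongest fall on the list of amino acid enzymes, where 15 of 34 were higher and 5 lower, and 4 and 6 with the covariate. Without Msi2 knockdown replicate 2, 9 of them were higher, and without Msi2 knockdown replicate 1, 3 were lower.

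Of 14 tested genes that others have reported as Musashi targets, 2 were called higher and 3 lower (median -0.03). These shares were no larger than the 22.7% and 22.5% of all tested genes. In the covariate fit 1 was higher and 3 were lower, where 1238 and 1459 of all 15021 genes were. CDKN1A was the largest rise. NUMBL rose too (log2 0.20), and TGFBR1, MET and IKZF2 fell, IKZF2 by 0.32 on the log2 scale. NUMBL and IKZF2 are named here to complete the counts. Without the covariate the p53 targets were called in no larger shares than the 22.7% and 22.5% of all tested genes called higher and lower. The covariate fit called 5 of 27 higher and 4 lower, larger shares than the 1238 and 1459 of all 15021 genes. Without it, 6 of the 27 were higher and 4 lower. Apart from CDKN1A these included AEN, an exonuclease, at 28.4, 24.6 and 27.6 CPM in the Msi2 knockdown libraries and 45.02, 43.8 and 40.3 CPM in the double knockdown libraries (log2 0.68 ± 0.07, edgeR adjusted p = 6e-07), and PMAIP1, the cell death protein NOXA (log2 0.48). TP53INP1, another p53 target, fell (mean 11.6 to 7.45 CPM, log2 -0.64 ± 0.10, edgeR adjusted p = 4.5e-05). Of 31 apoptosis regulators 12 were higher and 7 lower (5 and 4 with the covariate). CYCS, cytochrome c, stood at 180.0, 169 and 216 CPM in the Msi2 knockdown libraries and 311, 324 and 297 CPM in the double knockdown libraries (log2 0.72 ± 0.09, edgeR adjusted p = 4e-06).

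Markers of cells that the culture or sort could hold were mostly near 0. Summed fibroblast markers ran from 587.7 to 674 CPM in the double knockdown and from 798.2 to 908 CPM in the Msi2 knockdown, with 7 of 12 under 1 CPM. Nearly all of it came from collagen genes: COL1A2 went from a mean of 449 to 309 CPM and COL3A1 369 to 292 CPM, and both fell, COL3A1 without a call under the covariate (log2 -0.02) or without double knockdown replicate 2, while the smooth muscle gene TAGLN rose (log2 0.61 ± 0.09, edgeR adjusted p = 4.1e-05). Summed endothelial markers ran from 37.11 to 38.85 CPM and from 34.87 to 35.76 CPM, with 6 of 8 under 1 CPM. Summed blood cell markers ran from 49.3 to 53.75 CPM and from 48.02 to 48.44 CPM, almost all of it CD68, with CD3E at 0. Pancreatic acinar, ductal and islet markers summed to 256.2 to 265.9 CPM and 216.3 to 233.8 CPM, from SOX9, KRT19 and MUC1, with AMY2A and PNLIP at 0. Neuronal genes found in virus packaging cells summed to 277.1 to 315.5 CPM and 216.8 to 261 CPM, nearly all TUBB3, with NEFL and INA at 0. The part of other cells in the changes above was not tested.

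The same shRNA was also given to cells without the Msi2 shRNA, and that comparison shares no library with the one above. Changes in Msi1 knockdown against control libraries are called changes in control cells here. MSI2 itself was lower in Msi1 knockdown than in control libraries, without overlap (mean 54.0 against 82.7 CPM, log2 -0.61 ± 0.08, edgeR adjusted p = 6.8e-06). In Msi1 knockdown against control libraries 5907 genes were called (39.3%). Of the 6792 genes called in Msi2 knockdown cells, 2854 (42.0%) were also called in control cells, which is 48.3% of the calls there. Of these, 932 rose in both, 1101 fell in both and 821 went opposite ways. Across all 15021 genes the changes correlated weakly (Pearson's r = 0.19 and Spearman's rho = 0.14 over genes, which are no independent replicates), and r was 0.319 with the trend covariate. Among the 261 genes that rose at least 2-fold in control cells, 105 were called higher and 27 lower in Msi2 knockdown cells, with median changes of 1.28 and 0.30. Among the 171 that fell at least 2-fold, 94 were called lower and 5 higher, with medians of -1.29 and -0.47. The other 129 and 72 of these genes were not called in Msi2 knockdown cells. Since they were picked for their size in control cells, the medians of both comparisons are not on an equal footing. With the trend covariate 1971 genes changed the same way in both and 67 opposite ways, and 1266 of the 1971 were among the 2033 without it.

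The genes with the largest changes in the same direction in both kinds of cells had varied functions. RAB7B, a small GTPase of late endosomes, rose from 2.47 to 7.55 CPM in Msi2 knockdown cells (log2 1.61 ± 0.10, edgeR adjusted p = 1.3e-09) and from 3.04 to 10.4 CPM in control cells (log2 1.80). EGR3 rose by log2 1.53 and 2.21, MLLT11 by 1.31 and 1.29, IER3 by 1.26 and 1.26, and CDKN1A by 1.41 and 1.197. On the falling side PRODH changed by log2 -1.79 and -2.76, TXNDC5 by -1.51 and -1.82, ELMOD2 by -1.202 and -1.21 and FSTL1 by -1.16 and -1.21. EFCAB14, a calcium-binding protein gene, stood at 159, 157 and 156 CPM in the Msi2 knockdown libraries and 68.7, 70.9 and 76.9 CPM in the double knockdown libraries (log2 -1.12 ± 0.06, edgeR adjusted p = 2.9e-10), and changed by log2 -1.37 in control cells. EGFR fell in both as well (log2 -1.29 and -0.99). Control and Msi1 knockdown levels of these genes lie apart without overlap, as the plot by group shows.

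Other genes changed differently in the 2 comparisons. Only the comparison in Msi2 knockdown cells adds a second virus and a double positive gate. In the difference of responses these cannot be told apart from the Msi2 knockdown background. The difference of the responses was tested directly, and 6058 genes were called (40.3%). With the covariate 592 were called, 489 of them shared. All 821 genes that went opposite ways were among the 6058. FOS fell in control cells, from 10.2 to 5.27 CPM, and rose in Msi2 knockdown cells (log2 -0.99 and 1.05, difference 2.04, edgeR adjusted p = 8.7e-07). The complement genes CFB and C3 did the reverse: CFB changed by log2 1.39 in control cells and -0.70 in Msi2 knockdown cells, C3 by 1.03 and -0.68. C1R, a complement protease, changed by log2 1.36 and -0.40. The falls of CFB and C1R here were not called with the covariate (log2 -0.27 and -0.15), while their differences of response were (log2 -1.44 and -1.36). MUC1, a transmembrane mucin, rose from 17.6 to 33.4 CPM in control cells (log2 0.92). It stood at 31.7, 34.3 and 31.1 CPM in the Msi2 knockdown libraries and 19.4, 15.7 and 22.1 CPM in the double knockdown libraries (log2 -0.77 ± 0.10, edgeR adjusted p = 1.2e-05). OSMR, the oncostatin M receptor, rose in control cells (log2 0.64) and fell here (mean 266 to 174 CPM, log2 -0.62 ± 0.09, edgeR adjusted p = 4.2e-05).

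The remaining genes with a large tested difference of responses included an immune ligand and metabolic enzymes. CD274 encodes PD-L1, a ligand that restrains T cells. It rose from 2.60 to 12.98 CPM in control cells (log2 2.37) and from 6.19 to 8.45 CPM here (log2 0.45 ± 0.10, edgeR adjusted p = 0.0014; log2 0.23 and not called after thinning all libraries to the smallest, edgeR adjusted p = 0.339), a difference of -1.92 (edgeR adjusted p = 4.2e-07). S100A2, a calcium-binding protein of epithelia, stood at 10.6, 9.10 and 10.3 CPM in the Msi2 knockdown libraries and 22.2, 20.4 and 19.1 CPM in the double knockdown libraries (log2 1.05 ± 0.10, edgeR adjusted p = 6.2e-07), with a change of log2 -0.07 in control cells that did not pass the test. DHRS2 fell in control cells (log2 -0.51) and rose here. TP53INP1 and ABAT, a GABA-degrading enzyme, changed by log2 -1.75 and -1.74 in control cells and -0.64 and -0.39 here, where ABAT missed the threshold (edgeR adjusted p = 0.052). ABAT was called under 8 alternatives, with adjusted p-values from 0.0145 without control replicate 1 to 0.0488 without Msi1 knockdown replicate 1. The difference for ABAT was not called with the covariate (log2 1.14). ABCA1 changed by log2 0.07 in control cells, not called, against -1.65 here (difference -1.72, edgeR adjusted p = 1.6e-06).

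**Figure D4:**
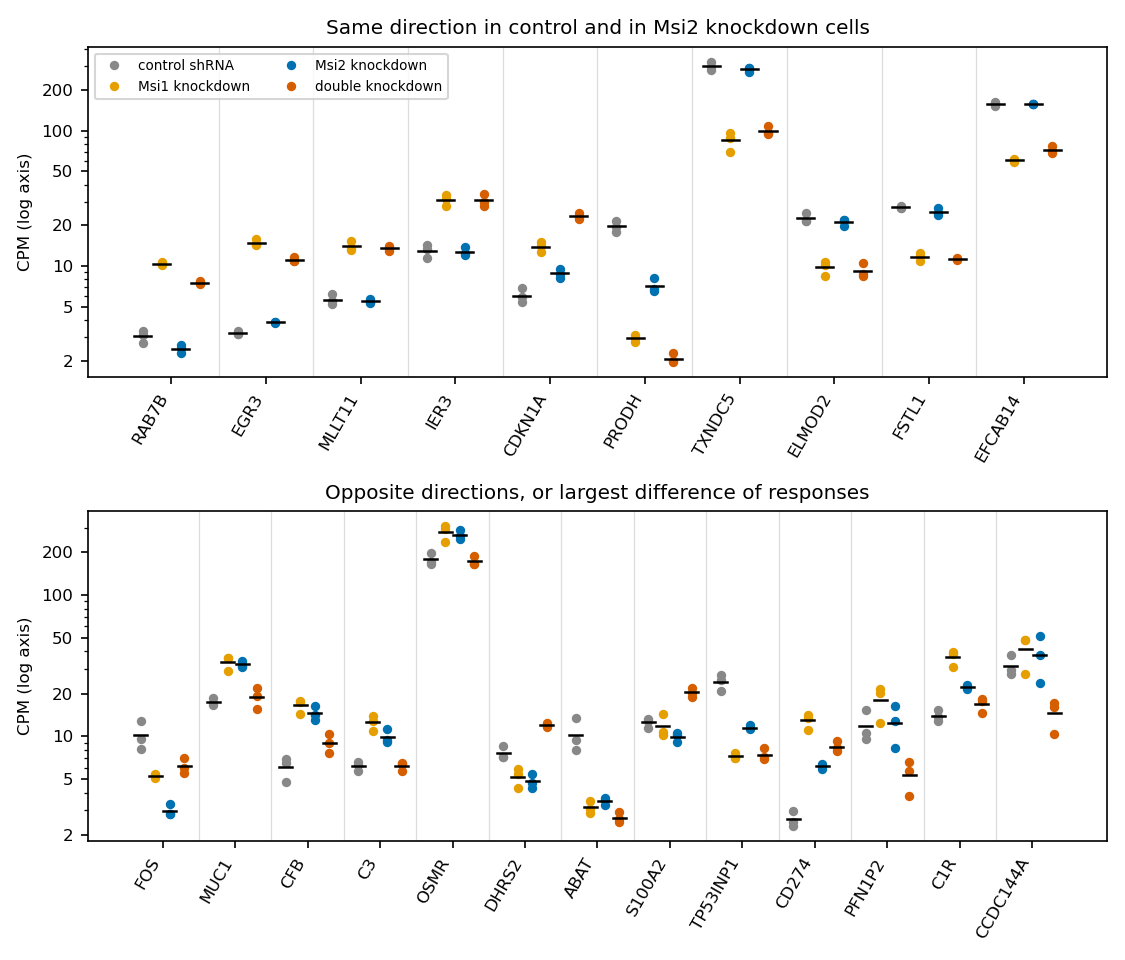
Level in CPM (log axis) in each library of the 4 groups, for the 10 genes with the largest change in the same direction in both kinds of cells (top) and for 13 genes that changed in opposite directions or with the largest difference of responses (bottom); points are libraries and black bars are means. FOS is highest in control cells and lowest in Msi2 knockdown cells, while CFB, C3, MUC1 and OSMR are higher in Msi1 than in control cells and lower in double than in Msi2 knockdown cells.

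The counts of gene lists can be set side by side for the 2 kinds of cells. Over all 15021 tested genes 2772 were called higher and 3135 lower in control cells, against 3413 and 3379 in Msi2 knockdown cells. A difference of responses was called for 6058 of all tested genes (40.3%), and for 592 with the trend covariate. Of S phase genes 7 were called higher and 8 lower in control cells, against 40 and 0 in Msi2 knockdown cells, and the difference of responses was called for 34 of 45. Of G2 and mitosis genes 3 were higher and 11 lower in control cells, and of ribosomal protein genes 0 and 4. Immediate early genes were called higher in 15 and lower in 2 in control cells against 16 and 1 here, with a difference called for 15 of 24. For NF-kB genes the counts were 20 and 0 against 14 and 3, with a difference called for 13 of 26. ER chaperones were called higher in 19 of 31 and lower in 1 in control cells, against 4 and 12 here, with a difference called for 25. Integrins and laminins were higher in 10 and lower in 3 of 24 in control cells, against 4 and 12 here. Heat shock genes were higher in 1 and lower in 13 of 23 in control cells, against 17 and 1 here. Of 22 fatty acid synthesis genes 5 were called higher and 11 lower in control cells, against 4 and 10 here. With the trend covariate most of these contrasts shrank: the difference of responses was then called for 5 of 45 S phase genes, 2 of 41 G2 and mitosis genes, 1 of 77 ribosomal protein genes, 7 of 24 immediate early genes, 10 of 26 NF-kB genes, 7 of 31 ER chaperones, 5 of 24 integrins and laminins and 3 of 23 heat shock genes. In that fit integrins and laminins were higher in 11 and lower in 4 in control cells against 5 and 3 here, and ribosomal proteins were higher in 39 and lower in 2 in control cells against 3 and 3 here.

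**Figure D5:**
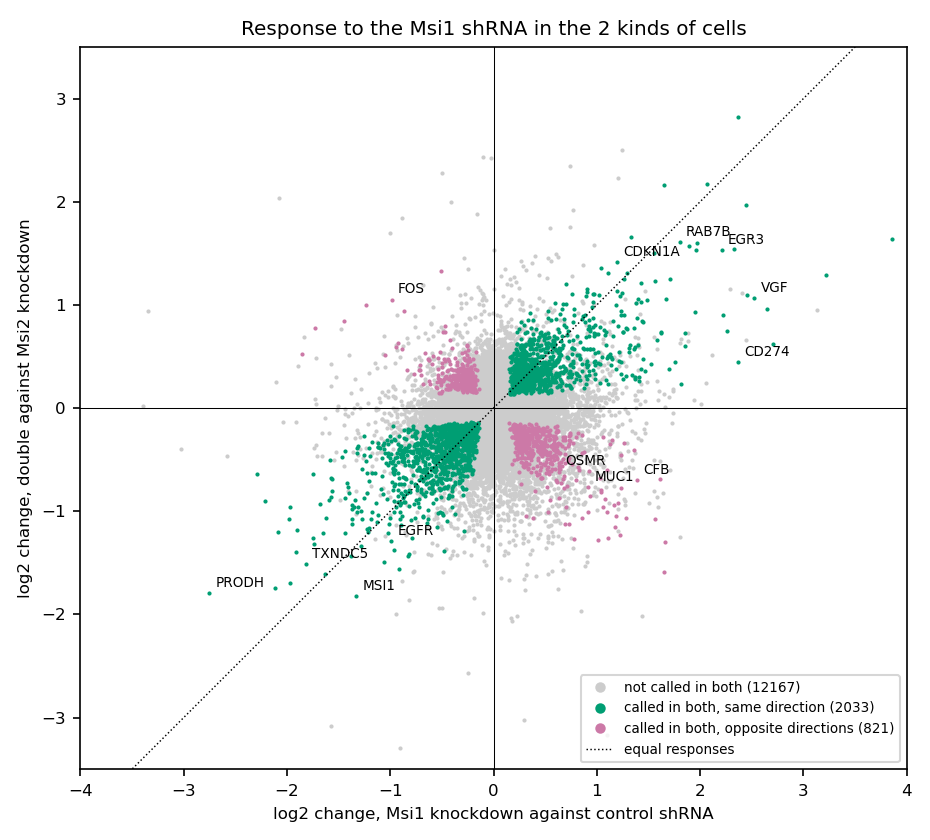
Log2 change of each tested gene in double against Msi2 knockdown cells (vertical axis) against its change in Msi1 knockdown against control cells (horizontal axis). The 2 comparisons share no library, only the first adds a second virus, and 3 genes lie beyond the axes. Green points were called in both with the same direction (2033), pink points in opposite directions (821), and on the dotted line the responses would be equal.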

How the data were processed

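RNA-seq of 12 MIA PaCa-2 libraries was used, in 4 groups of 3 given by the sample titles. The values are estimated counts per gene, deposited by the authors as whole numbers in 1 table, which were used without normalization. The submitters' processing notes name kallisto 0.42.1, CASAVA 1.4 and hg19, with no role given. Whether counting used strand is not given in the sources used here, so overlapping and antisense genes cannot be told apart. Totals per library were 10948191 to 56122207, and replicate libraries differed beyond sampling noise (chi-square per degree of freedom 3.82 to 36.55).

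Of 24528 genes, 15021 passed edgeR's filterByExpr (minimum count 10). They were fitted with edgeR 4.0.16 in R 4.3.3 (limma 3.58.1): TMM scaling, robust quasi-likelihood test, 1 mean per group over all 12 libraries, two-sided, Benjamini-Hochberg adjustment over all tested genes at 0.05. Standard errors are the size of the log2 change over the square root of its F. The contrasts were double against Msi2 knockdown, Msi1 knockdown against control, and the difference of both responses. Alternatives were DESeq2 1.42.0, RLE size factors, other filters, the compared groups alone, thinned counts, a replicate block, a transcript length correction, the library trend as a covariate, and leaving out each library. Transcript length is the longest GENCODE 29 transcript of a gene, matched for 99.2% of tested genes. Scripts were tested on simulated data.

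This comparison, its lists of genes and the rule by which genes are named were chosen with earlier results of these data known. Named genes are MSI1, MSI2, MET and HMGA2; the 12 largest rises and falls among called genes of at least 10 CPM without overlap; up to 3 members of each list with the smallest p; the 5 genes with the largest change in both kinds of cells for each of both higher, both lower and opposite; and the 5 largest differences of response in each direction. The line's markers and the members that complete a count were named after their values were seen. Promoter sequences are from RefSeq (GRCh38.p14). Other gene coordinates, and some genes that the rule picks, are not reported here.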

Additional observations from a re-analysis of the deposited data

Results flagged for a closer look

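For the genes below the response to the Msi1 shRNA differed between Msi2 knockdown cells and control cells, by edgeR's quasi-likelihood test of the difference itself. As above, the second virus and the sorting gate cannot be told apart from the cells' background in this difference. Each value is the log2 response in Msi2 knockdown cells minus that in control cells. So a positive value can stand for a smaller fall, as for TP53INP1, and a negative value for a smaller rise, as for EGR3. Of 136 tested genes named in the text the difference was called for 83, with adjusted p-values up to 0.0455, and for 27 of these also in the fit with the trend score. Over all 15021 tested genes it was called for 6058 (40.3%), and for 592 in the fit with the trend score. Some of the 136 genes were named for this same difference, so their share cannot be set against that of all genes. These 27 were FOS, DHRS2, HIST1H3H, S100A2, TP53INP1, PRODH, OASL, GINS2, HSPA8 and ACLY on the higher side and EGR3, TNFAIP3, ITGB4, CD68, COL3A1, PLAU, IFITM1, ERBB3, OSMR, VGF, CDH5, MUC1, C3, ABCA1, C1R, CD274 and CFB on the lower side. The other 56 lost their call there, and the value of 10 of them turned sign (PTTG1, UBE2C, ATP5L, SEC61B, PSMD14, PSMB2, NPC1, VLDLR, ZMAT1 and CCDC144B).

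Genes whose response was higher in Msi2 knockdown cells included growth and stress genes. The difference was 2.04 for FOS, 1.84 for DHRS2, 1.12 for S100A2, 0.988 for CCDC85B, 0.597 for SNAI1 and 1.11 for TP53INP1. For cell cycle genes it was 0.828 for GINS2, 0.602 for CDC6, 0.477 for PTTG1, 0.459 for SPC24, 0.413 for UBE2C and 0.291 for E2F1. For the histones HIST1H3H, HIST1H2BK and HIST1H1C it was 1.81, 1.26 and 0.868. For the chaperones DNAJA1, HSPA8 and HSPE1 it was 0.69, 0.682 and 0.649.

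Genes of protein making and respiration had smaller differences: 0.548 for RPL27A, 0.477 for RPS15, 0.365 for EIF3J, 0.47 for HNRNPM, 0.361 for PSMD14, 0.264 for PSMB2, 0.406 for SEC61B, 0.446 for ATP5D, 0.412 for ATP5L and 0.419 for CYCS. The metabolic genes PRODH, ABAT, ACLY and PGAM1 differed by 0.962, 1.35, 0.602 and 0.615, and the metallothionein MT1E by 0.593. The antiviral gene OASL differed by 0.926. The structural genes KRT19, KRT8, VIM and the transcription factor SOX9 differed by 0.509, 0.327, 0.318 and 0.267, and EFCAB14 by 0.248.

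Genes whose response was lower in Msi2 knockdown cells included complement and immune genes. The difference was -2.09 for CFB, -1.76 for C1R, -1.71 for C3, -1.92 for CD274, -1.19 for IFITM1, -1.1 for CD68, -0.792 for TNFAIP3, -0.778 for ERAP2, -0.649 for ERAP1 and -0.498 for HLA-E. Among receptors and surface proteins it was -1.68 for MUC1, -1.52 for CDH5, -1.25 for OSMR, -1.2 for ERBB3, -0.902 for ITGB4, -0.849 for NOTCH2, -0.769 for DSG2, -0.59 for TGFBR1, -0.546 for LRP5, -0.431 for FZD4 and -0.406 for ITGA6.

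Secreted and matrix genes differed by -1.46 (VGF), -1.17 (PLAU), -1.1 (COL3A1), -0.659 (COL5A1), -0.608 (COL6A1), -0.526 (SFRP1), -0.443 (LOXL2) and -0.442 (P4HA1). Genes of lipids, transport and lysosomes differed by -1.72 (ABCA1), -0.936 (SLC44A5), -0.604 (ATP9A), -0.577 (VLDLR), -0.469 (SLC39A10), -0.434 (NPC1) and -0.384 (CTSC). The regulators ERN1, EGR3, TET2, ZMAT1 and CDK6 differed by -0.904, -0.677, -0.617, -0.61 and -0.325. The copies CCDC144A, CCDC144B and PFN1P2 differed by -1.75, -1.5 and -1.82.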

How the results depend on the processing

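The 6792 calls (3413 higher, 3379 lower) were 6474 with DESeq2, 6796 with RLE size factors, 6466 without the low-count filter, 6050 among genes of at least 5 CPM in 3 libraries, 6962 with the compared groups alone, which can give no difference of responses, 5146 after thinning to the smallest library and 6565 with a transcript length correction. In the fit with the trend score as covariate they were 2697 (1238 higher, 1459 lower), with 52 falls of at least 2-fold, 67 genes changed in opposite directions in the 2 kinds of cells, 592 differing responses and MSI2 at -0.1651. Rises and falls of at least 2-fold (98 and 238) were 20 and 43 among genes of at least 5 CPM, and 57 and 130 after thinning. Same-numbered libraries did not deviate together (correlations 0.04, -0.02 and -0.39), so the replicate number was not taken as a pairing, and with a replicate block 7304 genes were called. No gene called in the comparison was called in the other direction under any of these settings.

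Leaving out 1 library at a time gave 5058 to 7195 changed genes, 2428 to 3613 higher, 2598 to 3610 lower, 79 to 111 at least 2-fold higher, 121 (without Msi2 knockdown replicate 2) to 383 (without Msi2 knockdown replicate 3) at least 2-fold lower, 1661 to 1983 changed the same way in both kinds of cells, 4379 to 7090 with differing responses, and log2 changes of -1.976 to -1.723 for MSI1 and -0.4646 to -0.2385 for MSI2. The 821 genes that went opposite ways were 439 without control replicate 1, 466 and 488 without Msi1 knockdown replicates 2 and 3, 509 without double knockdown replicate 1, 518 without Msi2 knockdown replicate 2 and 1390 without Msi1 knockdown replicate 1. The change of HMGA2 ranged from -0.366 to 0.08306 over the libraries left out.

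Changes of sign, none of a called gene that stayed called, were HMGA2 (0.004911 with the length correction, 0.4639 with the covariate), CCDC144B (0.006546), COX1 (0.08961), ND4L (0.2763), ND4 (0.1646), MT1E (-0.005022) and TUBB3 (-0.02614) with the covariate, and CD68 after thinning (-0.005444) and with the length correction (-0.02213). The cause was not tested.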

Other observations

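Of 36 hypoxia and glycolysis genes 11 were called higher and 7 lower, where 22.7% and 22.5% of all tested genes were. In the fit with the library trend score 6 were higher and 4 lower. Without double knockdown replicate 1 or Msi2 knockdown replicate 2, 6 were higher. PGAM1, a glycolytic mutase, stood at 469, 431 and 505 CPM in the Msi2 knockdown libraries and 728, 671 and 661 CPM in the double knockdown libraries (log2 0.55 ± 0.08, edgeR adjusted p = 3.3e-05), and P4HA1, a prolyl hydroxylase of collagen, fell by 0.46 on the log2 scale. Of 29 targets of ATF4, the transcription factor of the integrated stress response, 10 were higher and 4 lower, 3 and 2 with the covariate, and 6 were higher without Msi2 knockdown replicate 2. CEBPB, a transcription factor of stress and inflammation, stood at 13.1, 13.5 and 18.1 CPM in the Msi2 knockdown libraries and 29.1, 27.8 and 24.5 CPM in the double knockdown libraries (log2 0.86 ± 0.11, edgeR adjusted p = 1.7e-05). VLDLR, a lipoprotein receptor, fell (mean 5.24 to 3.12 CPM, log2 -0.75 ± 0.13, edgeR adjusted p = 0.0002), not called with the covariate (log2 -0.37).

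Of 21 YAP and TEAD targets 4 were higher and 5 lower, close to the 22.7% and 22.5% of all tested genes, and 3 and 1 with the covariate. The count lower was 2 without double knockdown replicate 1 or Msi2 knockdown replicate 2, and 3 without double knockdown replicate 3. WWTR1, which encodes a close relative of YAP, rose from 309 to 449 CPM (log2 0.54 ± 0.06, edgeR adjusted p = 3.5e-06). Of 18 stem cell and drug resistance genes 3 were higher and 3 lower, smaller shares than those of all tested genes. In the covariate fit 2 were higher and 3 lower, where 1238 and 1459 of all 15021 genes were. Of 9 metallothioneins and zinc genes 4 were higher and 2 lower, 0 and 2 with the covariate. MT2A, a metallothionein, rose (log2 0.47; with the covariate 0.12, not called), and SLC39A10, a zinc importer, fell from 372 to 234 CPM (log2 -0.67 ± 0.09, edgeR adjusted p = 8.8e-06). Among enzymes of amino acids, ARG2, a mitochondrial arginase, rose from 18.3 to 29.1 CPM (log2 0.68 ± 0.07, edgeR adjusted p = 1.8e-06). In the endothelial marker list EMCN, endomucin, fell (log2 -0.44), opposite to CDH5.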
